A study of Mus musculus with 40 samples.

Results

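The duodenum that remained in place after small bowel resection (SBR) was compared with the duodenum of sham-operated mice, both from mice given vehicle by gavage. The members were chosen by the sample titles alone: 7 libraries of the 40 in the series, 3 from sham vehicle mice and 4 from SBR vehicle mice. Of the 15958 genes in the table of log2 TPM (a level scaled for transcript length and for the total of the library), the 15093 with a mean of at least 1 over the 11 duodenum libraries were tested, and 4 duodenum libraries of SBR mice given WUSTL0717, an agonist of the liver X receptor (LXR), entered the fit only to help estimate the spread. All mice were wild-type C57BL/6 males, operated on at 8 weeks of age and given a liquid diet from the day after surgery. Per the labels SBR removed 50 to 60% of the small bowel, whereas the study's text gives a larger share. The removed part lay between the first centimetres below the ligament of Treitz and the distal ileum, so the duodenum was left upstream of the join. Sham mice had the ileum cut and rejoined with nothing removed. Vehicle (hydroxypropyl methylcellulose with Tween 80) was started 3 weeks after surgery and given daily for 7 weeks, and the tissue was taken at 10 weeks. The labels do not say which duodenum and ileum libraries came from the same mouse.

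The duodenum is the first segment of the small bowel. It receives chyme, bile and pancreatic juice, and its enterocytes split sugars and peptides at the brush border, take up iron and calcium, and pack dietary fat into chylomicrons. When jejunum and ileum are lost, the remaining bowel is known to adapt, with longer villi, deeper crypts and more transport per length. Many of the genes used for absorption also follow the daily rhythm set by feeding and by the cells' own clocks.

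The labelled region fits most of its defining markers in all 7 libraries, set beside the 7 ileum libraries of the same operations. The levels of Pdx1, a transcription factor of the duodenum and pancreas, lay between 4.26 and 4.81 log2 TPM in the duodenum and at 0.47 or below in the ileum. Gata4, which marks the proximal small bowel, lay between 5.76 and 6.28 in the duodenum and between 1.42 and 5.06 in the ileum. The iron genes Cybrd1, Slc40a1 and Slc11a2 were each higher in every duodenum library than in any ileum library, as were Fabp1 and S100g. Apoa4, also listed as a duodenal marker, overlapped, with 8.66 to 11.93 in the duodenum and 6.67 to 9.54 in the ileum. The bile acid transporter Slc10a2 and the bile acid binding protein Fabp6, both ileal, stayed at or below 0.88 and -0.35 in the duodenum.

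The libraries were not alike in 3 respects that bear on every result. First, the median level over the genes tested was 2.72, 3.10 and 3.21 log2 TPM in the sham libraries and 3.20, 2.27, 2.73 and 2.22 in the SBR libraries. The difference of -0.40 between the group means did not reach significance (exact two-sided permutation test over 35 splits, p = 0.257), but it moved every gene, and the median change over all genes tested was -0.36. Shares of TPM were computed back from the deposited values, with a pseudocount of 1 assumed. The authors had already adjusted these values with ComBat, a batch correction. On that basis a short RNA listed as Gm23935 took up to 46.4% of a library's sum, and protein-coding genes took between 28.01% and 61.5%. For that reason genes were tested on both scales: deposited, and centred, in which each library's median over the genes tested was subtracted. The median change of each gene list in the duodenum is given on both, and the change of a single gene is the centred one unless stated otherwise. The part of the noncoding RNAs in the deposited changes was not tested. Second, SBR library 1 stood nearest to the sham libraries and had the smallest weight of the 11 libraries in limma's weighting (0.305). In the deposited order it came directly after the sham duodenum libraries. The other SBR duodenum libraries came in a later block of gut libraries that held no sham. Whether these blocks were processed apart is not given in the sources used here, and the part of this order in the differences was not tested. Last, genes of neighbouring organs varied by library.

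**Figure D1:**
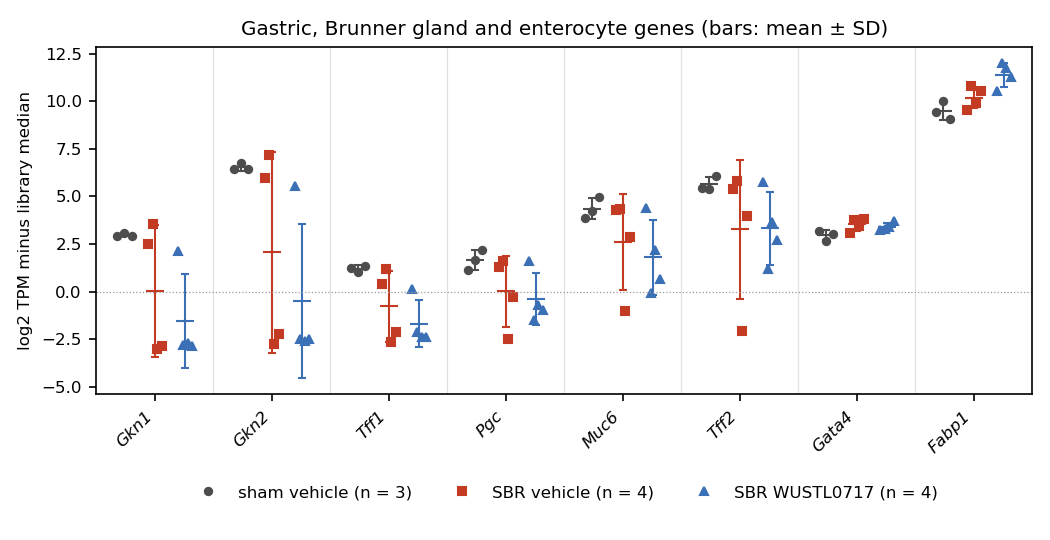
Level of 4 gastric genes, 2 Brunner gland genes and 2 duodenal enterocyte genes in each duodenum library, as log2 TPM minus the library's median (points: libraries; bars: mean ± SD). Gkn2 sat between 5.98 and 7.19 in the sham libraries and SBR libraries 1 and 2, and at -2.73 and -2.22 in SBR libraries 3 and 4, while Gata4 stayed between 2.66 and 3.83 in all 7.

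Gastric genes split the SBR group. Gkn2, a secreted protein of the gastric surface, stood at 9.15, 9.87 and 9.64 log2 TPM in the sham libraries and at 9.18, 9.46, 0.00 and 0.00 in the SBR libraries. All 3 sham libraries and SBR libraries 1 and 2 held it, and SBR libraries 3 and 4 were at or near 0 log2 TPM. Of the 10 gastric genes listed, 4 were in the table (Gkn1, Gkn2, Tff1 and Pgc), and all 4 were lower in SBR libraries 3 and 4 than in SBR libraries 1 and 2, although Pgc, the gene of progastricsin, still read 0.23 and 1.95 log2 TPM there. The list had a median centred change of -2.47 (-2.87 deposited), which became -0.10 without SBR libraries 3 and 4. The per-library median of the list ran from 2.10 to 2.56 in sham and from -2.68 to 2.57 in SBR, on the centred scale. Genes of Brunner glands, the mucous glands under the proximal duodenum, were at a list median of 1.73 to 2.11 in sham and -2.15 to 2.86 in SBR, with SBR library 3 the low one. Tff2, their trefoil peptide, read 8.57, 8.07, 0.64 and 6.18 in the SBR libraries. Pancreatic acinar genes varied within both groups, from 0.02 to 4.40 in sham and from -1.68 to 4.17 in SBR. The position along the duodenum at which each piece was cut is not given in the sources used here. The medians of the main gene lists are therefore also given with SBR libraries 1 and 2 alone against the 3 sham libraries, a comparison chosen after the data were seen.

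Across all genes, the call depended on the scale. On the deposited values limma with Benjamini-Hochberg adjustment called 0 of 15093 genes (0.0% higher and 0.0% lower), the smallest adjusted p was 0.082, and 515 genes higher (3.41%) and 1911 lower (12.7%) had an unadjusted p under 0.05. On the centred values 96 genes passed, 92 of them higher after SBR (0.61% of the genes tested) and 4 lower (0.0265%). All 96 genes changed in the same direction on the deposited values, where each had an unadjusted p under 0.05. In 92 of the 96 the groups did not overlap on the deposited values, beside 3.41% of all genes with every SBR library higher and 6.24% with every SBR library lower. On the centred values the groups did not overlap in any of the 96, beside 9.74% and 5.11% of all genes. The 96 changes were between 1.31 and 4.05 log2 units in size, and 83 of the genes are protein coding. The number of calls rested on single libraries. It was 0 without any one of sham libraries 1, 2 or 3 or SBR library 4, 2 without SBR library 2, 4 without SBR library 3, and 271 without SBR library 1, which kept 94 of the 96. Without SBR libraries 3 and 4 it was 0, with the direction unchanged in all 95 of the genes still tested. "Rose" and "fell" are used below for genes that passed on the centred values. No gene passed on the deposited values, whose adjusted p is given beside the genes named first.

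Circadian clock genes were among the genes that rose, and are described by their place in the clock. Cells keep a daily rhythm through a loop in which ARNTL (BMAL1) and CLOCK bind E-box sequences and drive Per, Cry, Nr1d and Ciart genes, whose proteins then repress that drive. The same sequences drive the D-box factors DBP, TEF and HLF, which pass the rhythm to output genes, while NFIL3 acts against them at the D-box. Of the 18 clock genes listed, all tested, 6 rose (0.61% of all genes did) and 1 fell (0.0265% of all genes). The median centred change was 1.39 beside 0.04 over all genes (0.99 beside -0.36 on the deposited values), and it was 1.61 without SBR libraries 3 and 4. The list was chosen with earlier results of these data known.

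Tef and Dbp, of the D-box factors, had the largest changes of the list. Tef (thyrotroph embryonic factor, chr15:81802421-81826863 on GRCm38) stood at 3.07, 3.10 and 3.26 log2 TPM in the sham libraries and at 6.50, 5.55, 6.95 and 5.82 in the SBR libraries, with no overlap. The centred change was 3.47 ± 0.39 (SE), 11.1-fold on this scale, with an adjusted p of 0.0118, the smallest of all genes (deposited 3.06, adjusted p = 0.0822). Tef was called in 3 of the 7 fits that leave out 1 library, with adjusted p-values from 0.00782 to 0.0818. Dbp (albumin D-site binding protein, chr7:45705088-45710203) read 3.30, 2.96 and 3.54 in sham and 5.78, 5.96, 7.65 and 6.33 in SBR libraries. SBR library 1 was the lowest of the SBR group and still 2.24 units above the highest sham library on the deposited scale. The centred change of Dbp was 3.57 ± 0.57 (adjusted p = 0.0298, deposited adjusted p = 0.107). Hlf, the remaining member of that family, changed by 1.27 ± 0.46 and did not pass (adjusted p = 0.203).

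Repressors of the loop rose as well, namely Per2, Per3, Cry2 and Ciart. Per2 (chr1:91415982-91459324) read 1.93, 2.45 and 2.74 in sham and 5.07, 3.97, 4.53 and 3.62 in SBR libraries, a centred change of 2.33 ± 0.37 (adjusted p = 0.0298). Per3 rose by 2.41 ± 0.46 (adjusted p = 0.0454), Cry2 by 2.26 ± 0.43 (adjusted p = 0.0441), and Ciart, a repressor of ARNTL-CLOCK, by 2.43 ± 0.46 (adjusted p = 0.0441). In each of these 3 the lowest SBR library lay above the highest sham library. Nr1d2, which encodes REV-ERB beta, gave 2.25 ± 0.49 (adjusted p = 0.0613) and Cry1 gave 1.56 ± 0.41 (adjusted p = 0.0973), again without overlap but short of the threshold. Per1 overlapped between the groups because sham library 3, at 6.19 log2 TPM, was as high as the SBR libraries (6.12, 4.92, 4.98 and 4.50), and Nr1d1 overlapped too (4.81, 6.18 and 6.01 in sham, 6.60, 4.68, 8.65 and 6.15 in SBR).

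Arntl, of the activating arm, fell. Arntl (chr7:113207465-113314126) read 2.10, 2.67 and 2.92 in sham and 1.37, 0.85, 0.62 and 0.51 in SBR libraries, so that every SBR library lay below every sham library. Its centred change of -1.32 ± 0.27 had an adjusted p of 0.0482. Nfil3, the repressor at the D-box, read 2.22, 4.29 and 4.79 in sham and 2.35, 1.75, 0.48 and 1.35 in SBR libraries (-1.88 ± 0.53, adjusted p = 0.114). The partner gene Clock gave 0.19 ± 0.43 (adjusted p = 0.85), and its sign turned on the deposited scale. Outside the list, and named after their values were seen, Usp2, a clock-controlled deubiquitinase, rose by 3.29 ± 0.50, with 3.16 to 4.08 log2 TPM in sham and 6.36 to 6.54 in SBR libraries (adjusted p = 0.0298), and Noct, the rhythmic phosphatase nocturnin, rose by 1.73 ± 0.35 (adjusted p = 0.0468).

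**Figure D2:**
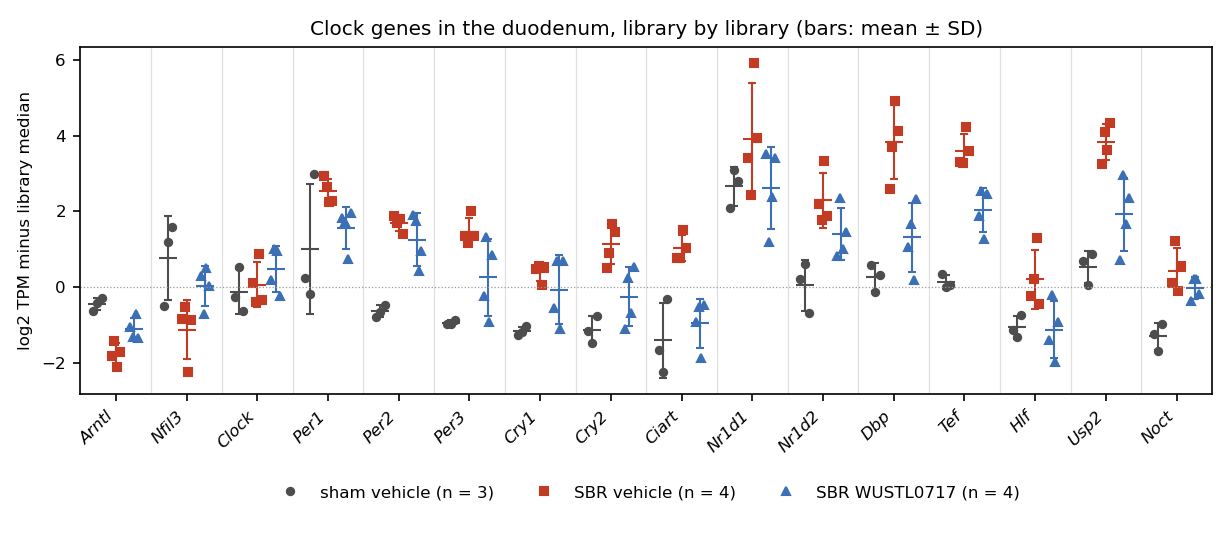
Levels of 14 clock genes with the clock-linked Usp2 and Noct in the 11 duodenum libraries, as log2 TPM minus the library's median (points: libraries; bars: mean ± SD). Tef sits near 0 in the 3 sham libraries and between 3.28 and 4.22 in the 4 SBR vehicle libraries, and Arntl lies lower in every SBR vehicle library than in any sham library.

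Sequences upstream of RefSeq starts of 3 of the genes that rose are shown because they hold the letters that clock factors read. They are the 250 bases before a RefSeq transcription start on GRCm38.p6, on the gene's strand, in lower case, with each E-box (CACGTG) or D-box (TTATGTAA) in capitals. The E-box reads the same on both strands, the D-box was searched on both, and the 2 motifs share no match. The RefSeq table holds 2 starts for Tef, and the window of the first is shown. That start lies 252 bases inside the gene as GENCODE places it (position above), so the window falls within the GENCODE gene, and the start of Ciart lies 23 bases inside.
Tef, chr15:81802423-81802672, plus strand: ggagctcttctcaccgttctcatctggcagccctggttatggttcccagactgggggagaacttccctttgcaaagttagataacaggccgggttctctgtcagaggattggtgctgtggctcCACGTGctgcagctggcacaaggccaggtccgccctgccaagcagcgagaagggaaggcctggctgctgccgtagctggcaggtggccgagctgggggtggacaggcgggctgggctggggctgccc
Ciart, chr3:95882229-95882478, minus strand: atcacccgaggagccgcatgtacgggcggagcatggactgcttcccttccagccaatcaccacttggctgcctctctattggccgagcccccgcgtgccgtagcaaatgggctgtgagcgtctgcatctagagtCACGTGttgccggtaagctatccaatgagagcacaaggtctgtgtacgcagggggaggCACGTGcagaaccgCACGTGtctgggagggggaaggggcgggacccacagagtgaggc
Per3, chr4:151044666-151044915, minus strand: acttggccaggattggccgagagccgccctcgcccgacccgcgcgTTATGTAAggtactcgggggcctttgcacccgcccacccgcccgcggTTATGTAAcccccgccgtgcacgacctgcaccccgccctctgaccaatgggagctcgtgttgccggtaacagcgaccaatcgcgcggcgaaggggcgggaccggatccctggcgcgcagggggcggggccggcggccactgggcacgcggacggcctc
Ciart holds 3 E-boxes, at 116, 58 and 44 bases before the RefSeq start (first base of each), and the Tef window shown 1, at 127 bases. The window of the second Tef start, not shown, holds 1 as well, at 138 bases. Per3 holds 2 D-boxes, at 205 and 158 bases. Of the 18 listed genes 15 matched the RefSeq table, and 4 of the 15 (Ciart, Cry1, Per1 and Tef) had an E-box in the window of at least 1 of their starts, whereas 6.86% of all 27025 genes in the table did. A D-box of these letters occurred in Per3 and in 0.977% of all genes. These are matches of letters and no measurement of binding.

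Of the 6 clock genes that rose in the duodenum, 4 (Dbp, Tef, Per3 and Ciart) had every SBR library above every sham library in the ileum as well, beside 6.73% of all genes there, whereas Per2 and Cry2 overlapped. Arntl, the 1 that fell, had every SBR library below every sham library in the ileum too (2.84% of all genes). In the ileum below the join, Dbp read 2.71, 3.62 and 2.35 log2 TPM in the 3 sham libraries and 5.47, 5.48, 5.42 and 6.91 in the 4 SBR libraries, and Tef 3.05, 4.03 and 3.12 and 5.35, 4.73, 5.88 and 6.81. Arntl read 2.74, 2.85 and 3.26 in the ileum of sham mice and 2.25, 2.37, 2.15 and 1.87 after SBR. Per2 read 3.31, 4.09 and 3.25 in sham and 4.97, 3.82, 5.29 and 5.13 in SBR ileum libraries. Of the 18 clock genes, 14 had a centred change of the same sign in both regions, and the median in the ileum was 0.89. No clock gene of the list passed the test of the difference between regions. For Tef the difference was 1.25 ± 0.59 (duodenum minus ileum, centred, adjusted p = 0.372) and for Dbp 0.71 ± 0.82 (adjusted p = 0.758). Usp2 did differ between regions, with a change of 3.29 for duodenum and of 0.36 for ileum libraries (adjusted p = 0.0391 centred and 0.0994 on the deposited values). In the SBR mice given WUSTL0717, Dbp in the duodenum read 4.06, 4.15, 2.80 and 4.83 and Tef 4.88, 5.01, 3.88 and 4.96, values given here as levels only. The study states that procedures were done in the light phase. The hour at which each mouse's tissue was taken is not given in the sources used here. Hour and operation cannot be told apart for these genes, nor for genes in the sections below that follow the daily rhythm.

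Over all 7 libraries, genes of fat absorption were the list with the highest centred median, whereas the clock list was higher without SBR libraries 3 and 4 (1.61 against 1.46). After digestion, enterocytes take up fatty acids, rebuild triglycerides and export them on chylomicrons carried by apolipoproteins. Of 30 such genes tested, 29 had a centred change above 0 (52.5% of all genes did), 18 had every SBR library above every sham library (9.74% of all genes did), and 3 rose (0.61% of all genes did). The median was 1.50 on the centred and 1.09 on the deposited values, and 1.46 without SBR libraries 3 and 4. In whole-tissue RNA, fewer cells of a type and less RNA per cell cannot be told apart, and this holds for every list below.

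The 3 that rose act in succession. Acsl5 (chr19:55251938-55297720) activates long-chain fatty acids to acyl-CoA. It read 6.01, 6.77 and 5.33 log2 TPM in sham and 8.29, 8.47, 8.78 and 8.13 in SBR libraries, a centred change of 2.78 ± 0.52 (adjusted p = 0.0415). Gpat3, which makes lysophosphatidic acid from glycerol 3-phosphate, was low in sham at 1.24, 2.40 and 0.92 and read 4.11, 3.47, 4.78 and 3.77 after SBR, a rise of 2.92 ± 0.41 (adjusted p = 0.0262). Dgat2, which joins the last fatty acid to diacylglycerol, rose by 2.74 ± 0.52 (adjusted p = 0.0441), with 6.27 to 8.23 log2 TPM in sham and 9.41 to 10.14 in SBR libraries. The groups did not overlap for any of them.

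Most of the route had the same sign without passing. Dgat1, the main intestinal triglyceride-forming enzyme, gave 2.02 ± 0.43 (adjusted p = 0.0561), the fatty acid transport protein gene Slc27a4 1.82 ± 0.38 (adjusted p = 0.0534) and the transcription factor gene Creb3l3 2.14 ± 0.45 (adjusted p = 0.0538). These 3 passed once SBR library 1 was left out. Mttp, which loads lipid onto apolipoprotein B, read 7.23, 8.18 and 7.11 in sham and 8.91, 8.80, 9.04 and 8.99 in SBR libraries (change 1.83, adjusted p = 0.0824). Apoa1, the main protein of high-density lipoprotein, read 9.69, 12.31 and 11.64 and 12.55, 13.52, 12.88 and 13.01. Its centred change of 2.18 ± 0.62 did not pass (adjusted p = 0.118), with sham library 1 far below the other two. Apoa4 overlapped between the groups (1.47 ± 0.65, adjusted p = 0.275), as did Fabp2 (2.27, adjusted p = 0.162) and Fabp1 (0.69, adjusted p = 0.486), the intestinal and liver-type fatty acid binding proteins.

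Slc5a1 and Slc2a5, sugar transporters of the brush border, rose. Slc5a1 encodes SGLT1, which takes up glucose with sodium. It read 5.34, 5.99 and 5.43 log2 TPM in sham and 7.64, 6.71, 8.29 and 6.84 in SBR libraries, a centred change of 2.19 ± 0.40, 4.55-fold (adjusted p = 0.0415). Slc2a5, the fructose transporter GLUT5, read 3.92, 4.12 and 4.02 and 5.72, 5.23, 6.16 and 5.64, a rise of 2.07 ± 0.35 (adjusted p = 0.0339). Neither gene's groups overlapped. Slc2a2, which encodes the basolateral exit transporter GLUT2, gave 1.34 ± 0.46 (adjusted p = 0.177).

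Of the 18 sugar, peptide and amino acid transporters tested, 2 rose (0.61% of all genes did), 16 had a change above 0 (52.5% of all genes) and 11 had every SBR library above every sham library (9.74% of all genes). The median was 1.08 (0.67 deposited, 0.77 without SBR libraries 3 and 4). Slc3a1, the heavy subunit of the transporter for cystine and dibasic amino acids, gave 1.69 ± 0.39 (adjusted p = 0.0691). Slc6a19, for neutral amino acids, gave 1.21 ± 0.35 (adjusted p = 0.124), and the peptide transporter Slc15a1 1.04 ± 0.33 (adjusted p = 0.153). Slc38a2, a transporter of the basal side, gave -0.49 with overlapping groups. Of other genes linked to transport, Slc9a3r1, the scaffold that anchors transporters in microvilli, read 5.65 to 6.88 in sham and 8.34 to 8.88 in SBR libraries and rose by 2.79 ± 0.42 (adjusted p = 0.0298). Slc13a2, the sodium-dicarboxylate cotransporter, rose by 2.67 ± 0.42 (adjusted p = 0.0298).

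Brush border hydrolases shared the direction but none passed. Of 19 tested, 18 were above 0 (52.5% of all genes) and 12 had every SBR library higher (9.74% of all genes), with a median of 1.05 (0.65 deposited, 0.73 without SBR libraries 3 and 4). Aminopeptidase N, encoded by Anpep, read 5.19, 6.05 and 6.07 in sham and 7.09, 6.94, 7.86 and 6.85 in SBR libraries (1.82 ± 0.39, adjusted p = 0.0613). Enpep, the glutamyl aminopeptidase, gave 1.77 ± 0.43 (adjusted p = 0.0774) and the starch-digesting Mgam 1.56 ± 0.49 (adjusted p = 0.149). The lactase gene Lct was the exception in sign at -0.41 ± 0.54, and its groups overlapped. SBR library 1 held the lowest median of this list in the SBR group, 1.71 against 2.48 to 2.61 in the other 3.

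**Figure D3:**
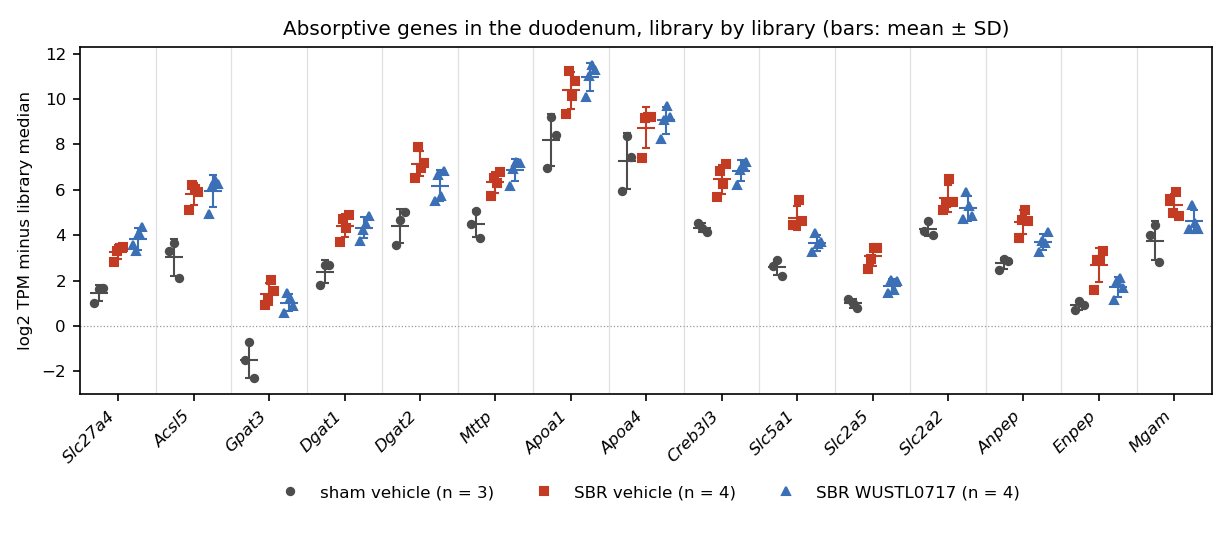
Levels of 9 fat absorption genes, 3 sugar transporter genes and 3 brush border hydrolase genes in the 11 duodenum libraries, as log2 TPM minus the library's median (points: libraries; bars: mean ± SD). For Acsl5, Gpat3, Dgat2, Slc5a1 and Slc2a5 every SBR vehicle library lies above every sham library, whereas Apoa4 overlaps.

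Genes of metal uptake and of sterols had positive medians and no calls. The median of 20 iron, copper and zinc genes was 0.67 (0.26 deposited), with 16 above 0 (52.5% of all genes were), and it was 0.40 without SBR libraries 3 and 4. Metallothionein Mt1, which binds zinc, read 5.85, 5.35 and 6.11 in sham and 9.16, 7.40, 7.04 and 6.74 in SBR libraries (2.22 ± 0.53, adjusted p = 0.0745), and hephaestin (Heph), which oxidizes iron for export, gave 1.30 ± 0.37 (adjusted p = 0.119). All 25 cholesterol synthesis and uptake genes had a centred change above 0 (52.5% of all genes did), with a median of 0.82 (0.89 without SBR libraries 3 and 4). SBR library 1 was the highest, with a list median of 2.57 against 1.21 to 1.82 in the other SBR libraries, and without it the median change was 0.48 with 22 of 25 above 0. On the deposited values 20 of them were above 0 (30.0% of all genes were) and the median was 0.41. Msmo1, an enzyme of sterol demethylation, gave 1.28 ± 0.39 (adjusted p = 0.144).

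Of the LXR targets and other genes that the study follows, none passed. Abca1, the cholesterol exporter, read 2.70, 2.35 and 2.57 in sham and 2.66, 2.56, 4.12 and 2.71 in SBR vehicle libraries (0.88 ± 0.59, adjusted p = 0.465). Scd1, the stearoyl-CoA desaturase, gave 0.44 ± 0.69 (adjusted p = 0.77), with values of 6.73, 5.28, 4.02 and 5.96 in SBR vehicle libraries and 11.42, 11.53, 11.58 and 12.83 in those of WUSTL0717. Srebf1, the lipogenic transcription factor, gave 0.29 ± 0.70 (adjusted p = 0.861), and the sign turned on the deposited values. Nr1h3, the gene of LXR alpha, gave 1.03 ± 0.41 (adjusted p = 0.237). Gata4, the regional factor, gave 0.57 ± 0.35 (adjusted p = 0.421). A p above the threshold does not show that these levels were equal in sham and SBR libraries.

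A few genes of detoxification, redox balance and stress were among those that rose. Of 32 xenobiotic metabolism genes, 30 were above 0 (52.5% of all genes were) with a median of 1.00 (0.60 deposited, 0.76 without SBR libraries 3 and 4), and 1 rose (0.61% of all genes did). This was Abcb1a, the P-glycoprotein efflux pump, at 2.53, 2.47 and 1.84 in sham and 4.34, 4.25, 4.61 and 4.59 in SBR libraries (2.57 ± 0.46, adjusted p = 0.0415). Outside the list, and named after their values were seen, Por, which passes electrons to all microsomal cytochromes P450, rose by 2.63 ± 0.43 (adjusted p = 0.0319), Cyp4b1 by 2.72 ± 0.48 (adjusted p = 0.0415), and the cation exporter Slc47a1 by 2.93 ± 0.49 (adjusted p = 0.0339). Cyp3a13 gave 2.23 ± 0.55 (adjusted p = 0.0824).

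Of 23 antioxidant genes 2 rose (0.61% of all genes did), and the median was 0.82 (0.42 deposited), which became 0.45 without SBR libraries 3 and 4. Srxn1 (sulfiredoxin, which restores oxidized peroxiredoxins) read 4.20, 4.69 and 4.08 in sham and 6.79, 5.93, 6.63 and 6.51 in SBR libraries, a rise of 2.54 ± 0.43 (adjusted p = 0.0339), and glutathione synthetase (Gss) rose by 1.92 ± 0.38 (adjusted p = 0.0468). Gclc, the rate-limiting step before it, gave 3.06 ± 0.66 (adjusted p = 0.0582). Of 13 hypoxia response genes 2 rose, again beside 0.61% of all genes. Egln3, the oxygen-sensing prolyl hydroxylase, rose by 2.41 ± 0.41 (adjusted p = 0.0339) and Bnip3, of mitophagy, by 2.42 ± 0.43 (adjusted p = 0.0415), and 10 of the 13 were above 0, beside 52.5% of all genes (median 0.87, 0.46 deposited, 0.90 without SBR libraries 3 and 4). Trib3, a pseudokinase induced by amino acid shortage and other stress, read 1.33, 1.82 and 1.86 in sham and 4.19, 4.19, 6.01 and 4.13 in SBR libraries, with SBR library 3 the highest, and rose by 3.37 ± 0.48 (adjusted p = 0.0262). The list it belongs to, amino acid and integrated stress response genes, had a median of -0.08 (-0.48 deposited, 0.27 without SBR libraries 3 and 4, and of either sign as single libraries were left out), and of its 19 tested genes 1, Trib3, passed, beside 0.61% of all genes in that direction.

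The enzymes at the ends of the proline pathway went in opposite directions. Aldh4a1 (chr4:139622866-139649690), the mitochondrial enzyme that ends proline breakdown to glutamate, read 3.39, 3.59 and 4.05 in sham and 6.73, 6.28, 8.48 and 7.29 in SBR libraries. Its centred change of 3.92 ± 0.48 was 15.2-fold (adjusted p = 0.0137, deposited adjusted p = 0.0822). It was called in 3 of the 7 fits that leave out 1 library. Aldh18a1, which starts proline synthesis from glutamate, read 4.18, 5.46 and 5.78 and 4.14, 2.28, 2.90 and 2.15 and fell by 1.87 ± 0.38 (adjusted p = 0.0468). Coq8a, needed to make coenzyme Q, fell by 2.27 ± 0.44 (adjusted p = 0.0461), with 5.46 to 7.16 in sham and 2.77 to 4.84 in SBR libraries. Got1, the cytosolic aspartate aminotransferase, rose by 2.65 ± 0.54 (adjusted p = 0.0485). The 4 genes that fell were Coq8a, Aldh18a1, Arntl and the small RNA Gm22232.

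Further genes with the smallest p-values had varied roles. Cdc42se2, an effector of the small GTPase CDC42, rose by 2.81 ± 0.36 (adjusted p = 0.0137, called in 2 of 7 fits that leave out 1 library). Emp1, an epithelial membrane protein, rose by 2.50 ± 0.37, the lipase Abhd2 by 2.77 ± 0.42 and the guanine exchange factor Rapgef2 by 1.83 ± 0.29 (each with an adjusted p of 0.0298 by limma). Acox2, the peroxisomal oxidase of branched chains, rose by 3.29 ± 0.53 (adjusted p = 0.0298), and Lgals3, the galectin-3 of villus enterocytes, by 3.12 ± 0.58 (adjusted p = 0.0441). Of the genes lower after SBR, Lifr, the receptor of leukaemia inhibitory factor, gave -1.60 ± 0.35 (adjusted p = 0.0617), Spon2, a matrix protein, -1.80 ± 0.37 (adjusted p = 0.0522), and Setbp1 -1.13 ± 0.27 (adjusted p = 0.0745), all without overlap.

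Of the defence genes, 3 of the interferon response and Ubd rose. Of 32 interferon response genes, 29 were above 0 (52.5% of all genes were), the median was 0.66 (0.26 deposited, 0.65 without SBR libraries 3 and 4), and 3 rose (0.61% of all genes did). Oas1a, a sensor of double-stranded RNA, read 2.89, 3.10 and 2.94 in sham and 4.79, 4.21, 4.89 and 4.30 in SBR libraries (1.98 ± 0.34, adjusted p = 0.0348). Its paralog Oas1g rose by 2.07 ± 0.38 (adjusted p = 0.0415), and reads shared between these near copies were left out by the authors' counting. Usp18, which removes ISG15 from proteins, rose by 1.82 ± 0.37 (adjusted p = 0.0468). The regulator Irf7 gave 1.97 ± 0.48 (adjusted p = 0.0794).

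Ubd, the ubiquitin-like protein FAT10 that interferon and tumour necrosis factor induce, had the largest change of the 96. It read 0.62, 1.27 and 0.84 in sham and 5.85, 3.38, 3.90 and 5.11 in SBR libraries, a rise of 4.05 ± 0.64, 16.6-fold on this scale (adjusted p = 0.0298). All 9 MHC class II and related genes were above 0 (52.5% of all genes were), with a median of 1.10 (0.70 deposited, 1.41 without SBR libraries 3 and 4) and no call. Cd74, their invariant chain, read 7.80, 7.07 and 8.10 in sham and 10.39, 8.19, 7.99 and 8.40 in SBR libraries (1.49 ± 0.65, adjusted p = 0.271). Per library the list was lowest in SBR library 3, 2.05 against 3.63 to 3.87 in the other SBR libraries. The antimicrobial lectins Reg3b and Reg3g gave 0.82 ± 0.43 (adjusted p = 0.347) and 0.76 ± 0.38 (adjusted p = 0.328).

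All 12 macrophage and dendritic cell genes tested were below 0 (47.5% of all genes were), with a median of -0.95 on the centred and -1.35 on the deposited values, -0.93 without SBR libraries 3 and 4, and -0.46 without sham library 3. None passed, and 1 of the 12 did not overlap, beside 5.11% of all genes. C1qb, of complement, read 6.40, 7.43 and 8.51 in sham and 5.87, 6.16, 4.72 and 4.42 in SBR libraries (-1.75 ± 0.57, adjusted p = 0.162). Per library the list median ran from 1.24 to 2.75 in sham and from 0.47 to 1.80 in SBR, so the groups overlapped.

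Crypt genes had negative changes and no calls. Of 17 Paneth cell genes, 15 were below 0 (47.5% of all genes), the median was -0.95 (-1.36 deposited), and 9 had every SBR library lower (5.11% of all genes). Without SBR libraries 3 and 4 the median was -0.93. The defensin Defa30 read 9.16, 9.49 and 8.73 in sham and 7.46, 7.46, 7.36 and 6.98 in SBR libraries (-1.41 ± 0.50, adjusted p = 0.191), though reads of near-identical defensin genes could be split or dropped. Mmp7, the protease that activates defensins, gave -1.36 ± 0.40 (adjusted p = 0.13), and Ang4, an antimicrobial ribonuclease of the same cells, -1.31 ± 0.32 (adjusted p = 0.0797, deposited -1.71, adjusted p = 0.107). None of Defa30, Mmp7 and Ang4 overlapped between the groups on either scale.

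Stem cell and cell cycle genes had medians below 0, which were nearer 0 without SBR libraries 3 and 4. Of 22 stem cell and Wnt target genes, 19 were below 0 (47.5% of all genes were), with a median of -0.54 (-0.94 deposited) that became -0.22 without those 2 libraries and -0.24 without SBR library 3 alone. Of 38 cell cycle genes 37 were below 0, with a median of -0.52 (-0.93 deposited) that became -0.18 and -0.30 likewise. Lrig1, which restrains growth factor receptors in stem cells, gave -1.30 ± 0.42 (adjusted p = 0.158), and Sox9 gave -1.59 ± 0.66 (adjusted p = 0.252). Lgr5, the marker of crypt base stem cells, gave -0.09 ± 0.27 (adjusted p = 0.894) with values of 1.18 to 1.79 in sham and 0.69 to 1.12 in SBR libraries. The proliferation gene Mki67 gave -0.98 ± 0.38 (adjusted p = 0.228) and Pcna, the sliding clamp, -1.17 ± 0.39 (adjusted p = 0.175).

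Ribosomal protein genes had the lowest centred median of the lists with over 20 genes tested. Of 86, 84 were below 0 on the centred and 85 on the deposited values (47.5% and 70.0% of all genes), with medians of -1.11 and -1.51. Without SBR libraries 3 and 4 the centred median was -0.34, and without SBR library 3 alone -0.72. Per library the centred list median was 4.27, 4.14 and 3.35 in sham and 3.69, 3.44, 1.33 and 2.32 in SBR, so that SBR libraries 3 and 4, in which Gkn1, Gkn2 and Tff1 were near or below 0 log2 TPM, were the low ones. The part of the piece of duodenum sampled in this difference was not tested. Rpl6 gave -1.52 ± 0.46 (adjusted p = 0.14). Genes of nuclear-encoded oxidative phosphorylation had a centred median of 0.43 (0.02 without sham library 3, 0.80 without sham library 2 and 0.18 without SBR library 2), which was 0.74, with 78 of 84 above 0, without SBR libraries 3 and 4. On the deposited values their median was 0.03, with 43 above and 41 below 0.

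**Figure D4:**
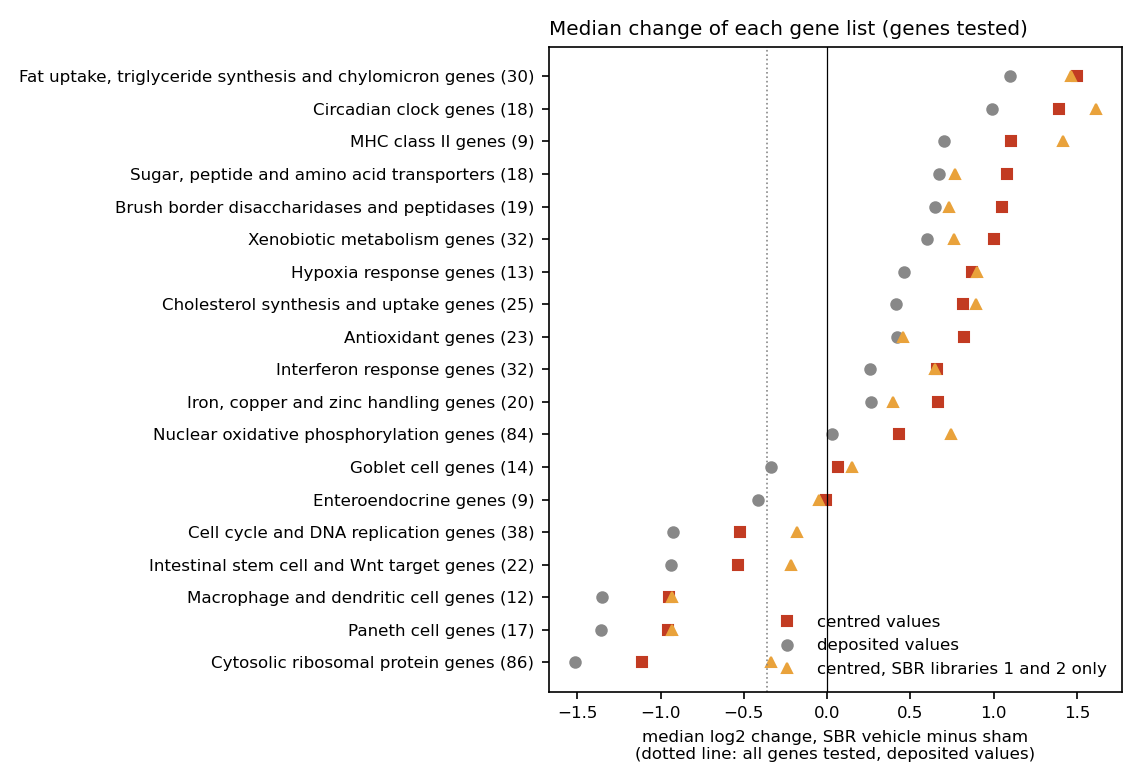
Median log2 change, SBR vehicle minus sham, of 19 gene lists on centred values, on deposited values, and on centred values with SBR libraries 1 and 2 only (number of genes tested in brackets; dotted line: median of all genes on the deposited values, -0.36). Fat absorption, clock and MHC class II genes lie highest on the centred scale, and the ribosomal protein median moves from -1.11 to -0.34 once SBR libraries 3 and 4 are left out.

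The change after SBR was then set against that in the ileum, in 1 fit of the 22 intestinal libraries that tests the difference between the regions' changes directly. Of 15923 genes, limma called 12 on the deposited values, 7 with a more positive change in the duodenum (0.044%) and 5 with a more negative one (0.0314%), and 60 on the centred values (49 and 11, 0.308% and 0.0691%). Gpat3 was one of them. The ileum read 4.95, 5.01 and 4.55 in sham and 4.49, 4.60, 3.79 and 3.96 in SBR libraries, where the duodenum rose, and the changes differed by 3.14 ± 0.52 (deposited, adjusted p = 0.019). Ubd went from 5.36, 5.08 and 5.40 in sham ileum to 1.61, 3.48, 5.09 and 3.70 after SBR, opposite to the duodenum, a difference of 5.46 ± 0.96 (adjusted p = 0.0277). On the centred values Dgat1 changed by 2.02 in duodenum and by -1.26 in ileum libraries (adjusted p of the difference 0.0438, 0.111 deposited).

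Fat absorption genes had a centred median of 1.50 in the duodenum and -0.07 in the ileum, in which 14 of 30 were above 0. Of the list, 2 passed the test of the difference on the centred values (0.308% of all genes with a difference above 0 and 0.0691% below) and 1 on the deposited values (0.044% and 0.0314%). Sugar, peptide and amino acid transporters had a median of -0.32 in the ileum, and for Slc5a1 the difference was 2.67 ± 0.59 (centred, adjusted p = 0.0519). Cholesterol synthesis genes were above 0 in both regions, with a median of 1.54 in the ileum. Slc25a48, a mitochondrial carrier, read 0.90, 0.97 and 1.28 in the duodenum of sham and 1.21, 0.99, 0.51 and 0.46 of SBR mice, and 2.11, 2.52 and 2.82 and 5.57, 5.12, 5.52 and 5.83 in the ileum (difference -3.28 ± 0.41, adjusted p = 1.0e-03). On the deposited values Suox, sulfite oxidase, changed by -0.85 in the duodenum and 2.13 in the ileum. Bco1, which cleaves beta-carotene, changed by -0.01 (0.40 centred) and 2.45. Without duodenum SBR library 1 the deposited count was 229 in place of 12, and over all 14 fits that leave out 1 library it was between 1 and 229.

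**Figure D5:**
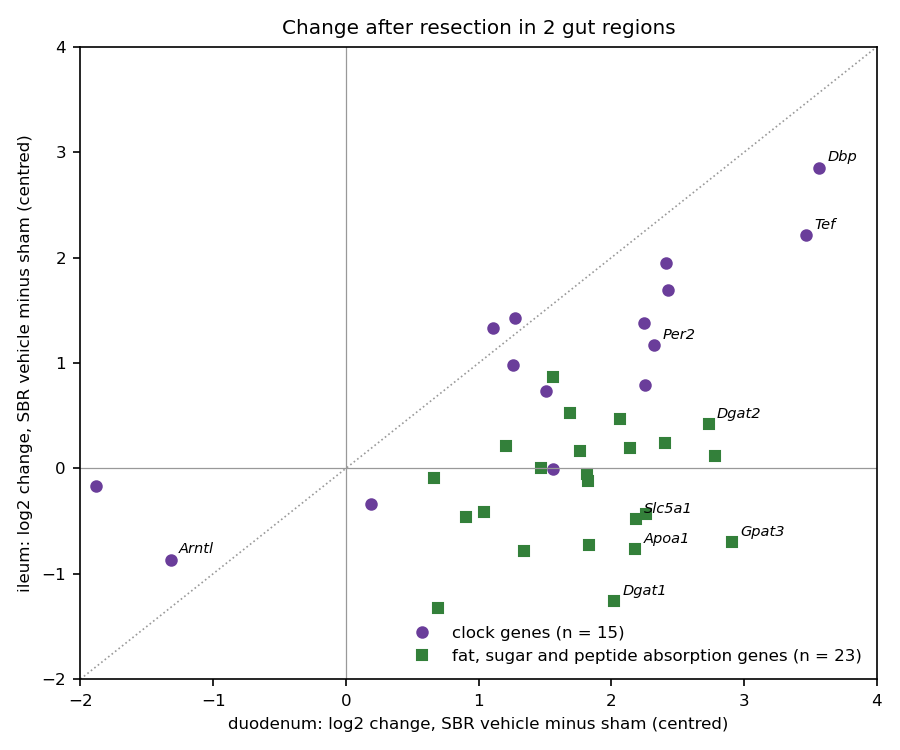
Centred log2 change after SBR in the duodenum (horizontal) and in the ileum (vertical) for 15 clock genes and 23 genes of fat, sugar and peptide absorption (dotted: equal change). Dbp and Tef lie high in both regions and Arntl low in both, whereas absorption genes lie to the right with ileum values on both sides of 0.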

How the data were processed

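RNA was sequenced after ribosomal RNA depletion. The authors aligned reads to GRCm38 (Ensembl release 101) with STAR, counted unique reads with featureCounts, and deposited log2 TPM values after ComBat correction. The duodenum and ileum libraries are listed as batch 1 and the liver libraries as batch 2. The pseudocount is not given in the sources used here (1 was assumed for alternatives and for shares of TPM), and depth is unknown. Gene positions are from GENCODE vM21.

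Genes with a mean of at least 1 were fitted over 3 duodenum groups (3, 4 and 4 libraries) with limma 3.58.1 (R 4.3.3, variance trend, Benjamini-Hochberg adjustment, called under 0.05), on deposited and on library-median-centred values, after a test on simulated data. The smallest exact permutation p over 35 splits is 0.0286. Nothing shows that replicates were processed independently, so p-values measure the spread between these libraries. Alternatives were filters, pseudocounts, variance models, weights, scalings, a replicate block and leaving out libraries; 2 were added after seeing the data.

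Named genes are, on each scale, the 10 higher and 10 lower of smallest p without overlap, at most 5 of each list (3 by p, 2 by sham level), 10 by the regional difference, 5 by abundance and 7 the study discusses. Not all are printed, some items are not reported here, and others were chosen after their values were seen. The samples and gene lists were chosen with earlier results of these data known.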

Additional observations from a re-analysis of the deposited data

Results flagged for a closer look

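In the SBR vehicle group, single libraries stood far from the other 3 for 4 genes and 6 list medians, 10 of the 178 sets of values looked at, where chance alone gives about 1 in 20. In SBR library 1, Cry1 read 3.68 log2 TPM against 2.75 to 2.83 in the others and Slc38a2 5.70 against 3.25 to 3.55. In SBR library 3, Abca1 read 4.12 against 2.56 to 2.71 and Trib3 6.01 against 4.13 to 4.19. On the centred scale, SBR library 1 had the lowest list median for brush border hydrolases (1.71), regional transcription factors (1.30 against 2.07 to 2.11) and ileal enterocyte genes (1.26 against 2.31 to 2.48). SBR library 3 had the lowest for Brunner gland genes (-2.15) and MHC class II genes (2.05), and SBR library 2 for antioxidant genes (3.39 against 3.83 to 3.90).

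The change after SBR differed between duodenum and ileum, by the limma test of the difference on deposited values, for Gpat3 (3.14), Ubd (5.46), Ugt2a3 (3.64), Gimd1 (2.84) and Nudt5 (2.40), and for Slc25a48 (-3.28), Suox (-2.99), Bco1 (-2.46), Acta1 (-2.34) and Cutal (-2.11), as duodenum change minus ileum change in log2 units. For Ugt2a3, a glucuronosyltransferase, the duodenum change was 0.30 and the ileum change -3.34. For Gimd1 they were -0.15 and -3.00, and for Nudt5 1.12 and -1.28. The sign of the duodenum change turned on the centred values for Gimd1 (0.25), Slc25a48 (-0.26 deposited, 0.15 centred) and Cutal (-0.37 deposited, 0.03 centred). It also turned for Bco1 (-0.01 deposited, 0.40 centred).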

How the results depend on the processing

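On the deposited values, 0 genes were called by limma in the chosen fit (2426 at an unadjusted p under 0.05), and 5 with a mean of at least 3 log2 TPM required, 5 without the variance trend, 1 by the unmoderated test, 2497 with library weights, 34 after quantile normalization, 3 after scaling to the protein-coding sum, and 0 to 589 when 1 library was left out (589 without SBR library 1). On the centred values, 96 became 21 with a pseudocount of 5, 171 without the trend, 0 unmoderated, 394 with weights, 11 with the 2 groups alone, 34 after quantile normalization, 22 centred on the 75th percentile, 757 centred on ribosomal protein genes, 3 scaled to the protein-coding sum, 0 with SBR libraries 1 and 2 only, and 0 to 271 when 1 library was left out. The unmoderated test, the 2 groups alone and SBR libraries 1 and 2 only use fewer libraries or degrees of freedom; for the others the cause was not tested. With a replicate block the counts were 0 deposited, 0 centred and 34 for the difference from the ileum. Same-numbered sham and SBR duodenum libraries deviated with r of -0.102, -0.041 and 0.013. Same-numbered duodenum and ileum libraries did so with -0.136 to 0.447, 3 of 7 above 0.1. In sham mice the same numbers gave 0.358, 0.070 and 0.447, and different numbers -0.456 to 0.224. Whether equal numbers in the 2 regions stand for the same mouse cannot be told from these values. The difference from the ileum gave 12 genes on deposited values, 60 on centred values and 1 to 229 when 1 library was left out. Of single genes, the sign of the centred change turned for Clock (-0.22 deposited, -0.17 scaled to the protein-coding sum, -0.0233 with SBR libraries 1 and 2 only, -0.0846 to 0.51 when 1 library was left out), Srebf1 (-0.12 deposited, -0.0715 protein-coding sum), Lct (-0.821 to 0.0616 when 1 library was left out), Scd1 (-0.16 to 0.974 likewise), and Gkn1 (0.0305) and Gkn2 (0.0402) with SBR libraries 1 and 2 only. Of the 121 named genes, 107 kept both their status (called or not called) and direction under quantile normalization, and 104 without SBR library 1. Without 1 of the other libraries 78 to 84 did, 82 scaled to the protein-coding sum and 79 on the deposited values. These counts include genes called in neither fit, as all 79 were on the deposited values. Of the 96 calls themselves, 0 to 4 remained without 1 of the other libraries. Depth is unknown, and groups of 3 and 4 limit the precision.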

Other observations

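Goblet cell genes had a centred median change of 0.06 over 14 genes tested and enteroendocrine genes -0.01 over 9, beside 0.04 for all genes. On the deposited values these were -0.34 and -0.41, beside -0.36. T cell and intraepithelial lymphocyte genes had a median of 0.36, with 10 of 11 above 0 (-0.04 on the deposited values), and B cell and plasma cell genes -0.26, with 8 of 10 below 0 (-0.67 on the deposited values). The B cell median was -0.09 without sham library 1, -0.15 without SBR library 1, -0.41 without SBR library 2 and -0.16 without SBR library 4, and -0.17 without SBR libraries 3 and 4. In the wall, fibroblast and collagen genes had a median of -0.26 and smooth muscle genes -0.23 (-0.67 and -0.64 deposited). Adipocyte genes had a median of 1.15 (0.74 deposited), with 4 of 5 above 0, which became 0.63 without SBR libraries 3 and 4. Per library their centred median ran from 0.04 to 1.49 in sham and from 0.52 to 1.46 in SBR, so the groups overlapped. The highest change of that list, 2.81, was that of Pck1, which is also in the gluconeogenesis list below. Pancreatic acinar genes had a median of -1.20 (-1.60 deposited), which was -0.25 without SBR library 1, -0.20 without sham library 1, -2.45 without sham library 3 and -2.24 without SBR library 2. Tuft cell genes had a median of -0.39 over 5 genes (-0.79 deposited), which was -0.18 without sham library 3 and -0.60 without SBR libraries 3 and 4. The fibroblast and smooth muscle medians changed sign when single libraries were left out, as did those of goblet and enteroendocrine genes. No gene of these 9 lists was called on the centred values.

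Replication-dependent histone genes were below 0 in all 50 tested (47.5% of all genes were), with a centred median of -1.05 (-1.46 deposited) that became -0.43 without SBR libraries 3 and 4. None passed on the centred values, and 21 of the 50 had every SBR library lower (5.11% of all genes). The 7 ileal enterocyte genes tested in the duodenum were all above 0 (median 1.21, 0.80 deposited), and Slc10a2 and Fabp6, which define the ileum, stayed at or below 0.88 and -0.35 log2 TPM. Chaperone genes of the endoplasmic reticulum had a median of -0.41 (-0.82 deposited), which became 0.19 without SBR libraries 3 and 4. It was -0.06 without SBR library 3 alone and -0.23 without sham library 1. In the glycolysis and gluconeogenesis list, Pck1, which forms phosphoenolpyruvate, read 4.21, 5.29 and 6.06 in sham and 6.11, 8.38, 7.43 and 8.45 in SBR libraries (2.81 ± 0.79, adjusted p = 0.115 by limma), while G6pc, which releases free glucose, gave -1.61 ± 0.62 (adjusted p = 0.225).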
